A study of Homo sapiens with 3 samples.

Results

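AP-1 is a family of dimeric transcription factors built from basic leucine zipper (bZIP) proteins, and the genes described here are 10 of its subunits: the Fos members FOS, FOSB, FOSL1 and FOSL2, the Jun members JUN, JUNB and JUND, and the related ATF3, BATF and BATF3. They were chosen by name from the 60880 gene rows of 1 RNA-seq library, and all 10 had a row. The library came from wild-type NCI-H1975, an established human lung adenocarcinoma cell line, grown without a named drug in medium with fetal calf serum, and it is replicate 2 of its group. The series covers wild-type cells, an anlotinib-resistant derivative (anlotinib inhibits several receptor tyrosine kinases) and resistant cells with TFAP2A knocked down. Those cells and the 2 wild-type ATAC-seq samples were not analysed here, so no contrast between cell states was made and no value has a replicate check.

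Jun proteins can pair with each other or with a Fos protein, whereas Fos proteins need a Jun or other bZIP partner to bind DNA. FOS, FOSB, JUN and JUNB are classical immediate early genes, induced for a short time after serum or growth factors, whereas FOSL1 (Fra-1) and FOSL2 (Fra-2) are induced later and held longer, and JUND is known for steady expression. In epithelial tumour cells FOSL1 is known as a product of sustained RAS and ERK signalling, which in NCI-H1975 runs downstream of mutant EGFR. BATF and BATF3 lack the activation domains of the longer subunits and are best known from lymphocytes and dendritic cells, and ATF3 is induced by stress.

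AP-1 dimers of Jun and Fos bind the TRE (TGACTCA), and dimers with ATF or CREB proteins favour the longer CRE (TGACGTCA). Several subunit genes carry such elements in their own promoters, and JUN is known to be activated by its own product through a variant site (TGACATCA). RefSeq promoter windows (GRCh38.p14, 250 bases before to 50 after an annotated start) were matched for 8 of the 10 genes, in 9 windows because 2 annotated starts were matched for ATF3. No other start of ATF3 was searched, and which starts the cells use was not tested. FOSL1 and BATF3 were not matched. The windows below are those that hold a complete TRE, CRE or variant site, and that of FOS, which stands for a member with few reads. Capitals mark these 3 sites and the 5-base CRE core (TGACG, read CGTCA on the other strand).
FOSL2: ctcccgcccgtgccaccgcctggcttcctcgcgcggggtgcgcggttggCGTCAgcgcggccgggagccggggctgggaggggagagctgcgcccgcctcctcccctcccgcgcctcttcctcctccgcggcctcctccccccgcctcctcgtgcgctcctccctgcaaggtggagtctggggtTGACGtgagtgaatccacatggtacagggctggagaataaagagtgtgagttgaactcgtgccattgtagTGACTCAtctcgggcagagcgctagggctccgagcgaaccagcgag
JUN: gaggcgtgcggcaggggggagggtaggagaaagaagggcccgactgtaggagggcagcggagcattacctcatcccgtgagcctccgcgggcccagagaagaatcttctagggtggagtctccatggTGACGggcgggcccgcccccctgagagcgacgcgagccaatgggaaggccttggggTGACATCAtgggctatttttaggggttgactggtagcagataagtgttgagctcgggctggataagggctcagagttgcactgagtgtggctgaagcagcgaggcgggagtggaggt
JUND: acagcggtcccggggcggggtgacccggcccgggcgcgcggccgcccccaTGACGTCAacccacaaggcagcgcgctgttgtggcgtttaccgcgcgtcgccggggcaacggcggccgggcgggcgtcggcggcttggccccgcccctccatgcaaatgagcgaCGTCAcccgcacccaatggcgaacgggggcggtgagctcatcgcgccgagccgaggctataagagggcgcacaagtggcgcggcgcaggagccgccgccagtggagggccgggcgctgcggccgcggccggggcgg
ATF3 at its upstream start: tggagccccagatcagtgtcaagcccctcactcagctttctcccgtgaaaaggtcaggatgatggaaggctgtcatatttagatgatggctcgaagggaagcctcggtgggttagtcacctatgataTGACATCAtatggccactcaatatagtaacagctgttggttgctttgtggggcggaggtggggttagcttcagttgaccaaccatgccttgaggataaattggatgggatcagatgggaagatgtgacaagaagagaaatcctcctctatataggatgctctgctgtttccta
FOS: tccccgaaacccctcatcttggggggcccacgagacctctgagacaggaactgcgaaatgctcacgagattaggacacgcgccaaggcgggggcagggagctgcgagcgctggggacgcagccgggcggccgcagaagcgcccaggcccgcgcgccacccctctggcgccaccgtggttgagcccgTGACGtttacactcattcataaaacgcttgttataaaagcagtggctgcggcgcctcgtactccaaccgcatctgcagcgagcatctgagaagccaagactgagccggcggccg
The windows lie at chr2:28392608-28392907 (plus strand) for FOSL2, chr1:58783998-58784297 (minus strand) for JUN, chr19:18281573-18281872 (minus strand) for JUND, chr1:212565157-212565456 (plus strand) for ATF3 and chr14:75278578-75278877 (plus strand) for FOS, all in GRCh38.p14, whereas the counts were made on another build.

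Both strands of each window were searched. The TRE was found in the window of FOSL2, from base 5 to base 11 after the start, and in 4.95% of all 35116 RefSeq windows. The CRE was found in that of JUND, from 200 to 193 bases before the start, and in 1.85% of all windows. The variant site was found in 2 windows, from 67 to 60 bases before the start of JUN and from 123 to 116 bases before the upstream start of ATF3, and in 2.61% of all windows. It was searched because it is known from JUN, so its match there was given in advance. The elements were chosen after values or sequences were seen, so the shares over all windows are a description and not a test. The CRE core was found in 6 of the 9 windows, those of JUNB, FOSL2, JUN, JUND, FOS and FOSB, and in 24.6% of all windows. Of the core matches of JUND, those from 200 to 193 bases before the start lie inside its CRE. The core of FOS lay 64 to 60 bases and that of FOSB 60 to 56 bases before the start. A core of FOSL2 lay at a like distance, 66 to 62 bases before the start, and its other core lay 201 to 197 bases before it. The serum response element of FOS is built on a CArG box that is known from farther upstream than these windows reach. None of the 9 windows held a CArG box, searched as CC, 6 letters of A or T, and GG, against 1.29% of all windows. Boxes that depart from these letters were not counted. The windows of BATF and of the second ATF3 start held none of the 4 elements. This says nothing of promoter sequence of these genes outside the windows searched. A match is a run of letters and not a bound site, and accessibility was not analysed here.

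**Figure D1:**
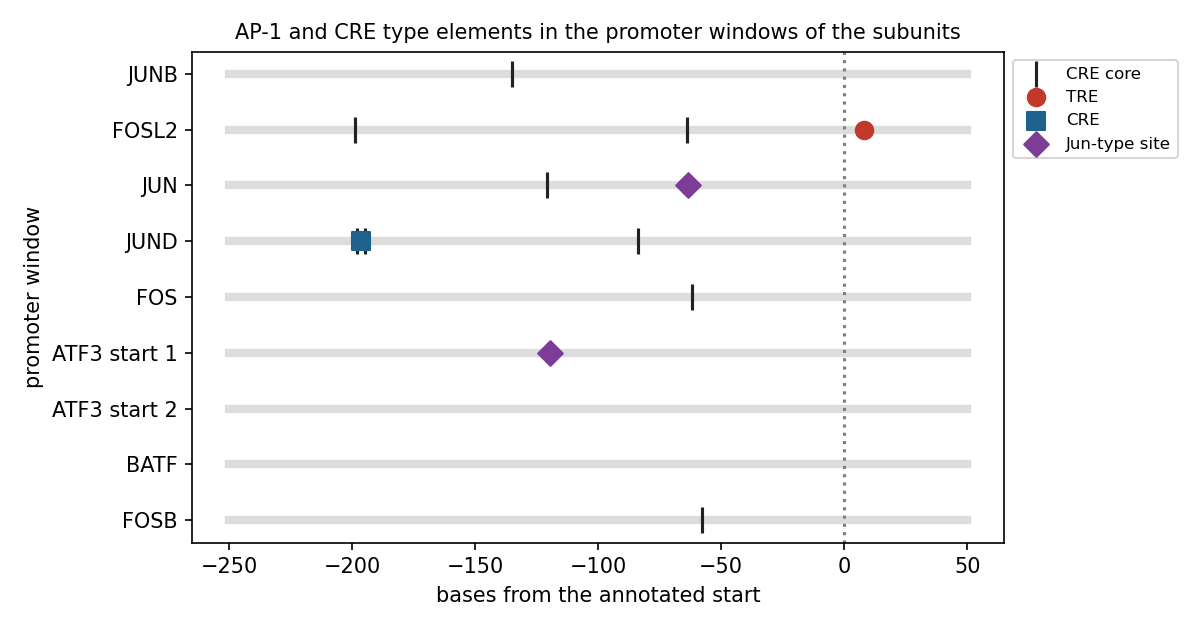
Positions of the TRE, CRE, variant (Jun-type) site and CRE core in the 9 RefSeq promoter windows of 8 subunit genes, in order of read counts from the top; the x axis gives bases from the annotated start and each grey bar is 1 window. FOSL2 alone among the 9 windows holds a TRE and JUND alone a CRE. FOSL2, FOS and FOSB hold a CRE core at a like distance, 66, 64 and 60 bases before the start.

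The library held 25012733 counts. CPM below is counts per 1000000 counts of the library, 1 count equalled 0.04 CPM, and brackets hold 95% intervals for counting error alone. A long transcript draws more reads than a short one of the same abundance, so CPM ranks genes by reads and not by molecules. All 10 subunit genes reached 10 counts, taken here as detection, as did 69.6% of 19216 protein-coding genes and 29.4% of all 60880 gene rows. All 10 also had at least 1 count, against 78.8% of protein-coding genes. At 1 CPM 9 of the 10 passed, against 65.5% of protein-coding genes, and at 50 counts 7 passed, against 62.4%, FOSB, BATF and BATF3 falling short. The median of the 10 subunits was 1786.5 counts, or 71.4 CPM, and that of the 13376 detected protein-coding genes was 654.5 counts, or 26.2 CPM. The median of the subunits falls in a gap, since 5 of them had 3148 counts or more and 5 had 425 or fewer. The upper 5 were the Jun genes with FOSL2 and FOSL1, and the lower 5 were FOS, FOSB, ATF3, BATF and BATF3.

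**Figure D2:**
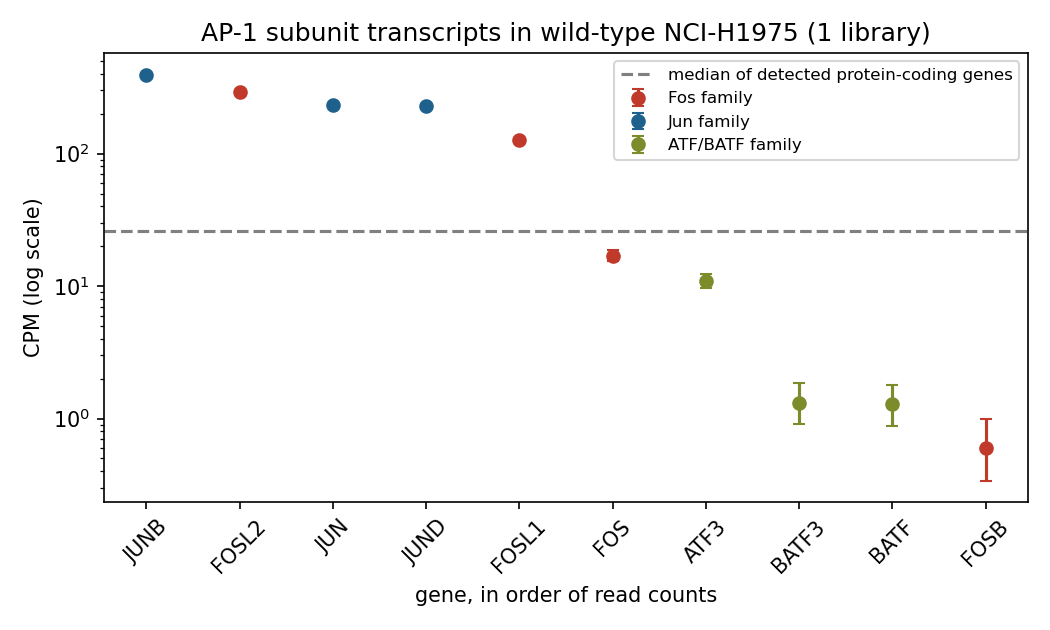
CPM (y axis, log scale) of the 10 AP-1 subunit genes in the wild-type library, in order of read counts; bars are 95% Poisson intervals and the dashed line is the median of detected protein-coding genes, 26.2 CPM. JUNB, FOSL2, JUN, JUND and FOSL1 lie between 126 and 396 CPM, and the other 5 lie at 17.0 CPM or below.

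The Jun members held most AP-1 reads. JUNB, a Jun protein with a weaker activation domain than JUN, had 9897 counts (identifier ENSG00000171223.5_2), or 396 CPM (388 to 404), more than 97.6% of detected protein-coding genes. JUN, the founding member and main target of the JNK kinases, had 5801 counts, or 232 CPM (226 to 238), more than 94.7% of them. JUND, the steadily expressed member, had 5743 counts, or 230 CPM (224 to 236), more than 94.6%. The 3 Jun genes together had 21441 counts, or 65.6% (65.1 to 66.1) of the 32690 counts of the 10 subunits. JUN and JUND did not differ in read number beyond counting error, with a ratio of 1.01 (0.974 to 1.05), whereas JUNB had 1.71 times (1.65 to 1.76) the reads of JUN.

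Because the Jun genes have no introns, the RefSeq length of each gene (GRCh38.p14) stands for its transcript length, and their levels could be set against each other per length. JUNB is 1830 bases long, JUND 1929 and JUN 3257. Per kb, JUNB had 5408 counts (5302 to 5516), JUND had 2977 (2901 to 3055) and JUN had 1781 (1736 to 1828). On this scale the level of JUND was 1.67 times (1.61 to 1.73) that of JUN, although their read numbers were alike, and the level of JUNB was 3.04 times (2.94 to 3.14) that of JUN and 1.82 times (1.76 to 1.88) that of JUND. JUNB then made up 53.2%, JUND 29.3% and JUN 17.5% of the Jun counts per kb. RefSeq lengths may differ from those of the annotation behind the counts, and which transcript ends the cells use was not tested.

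**Figure D3:**
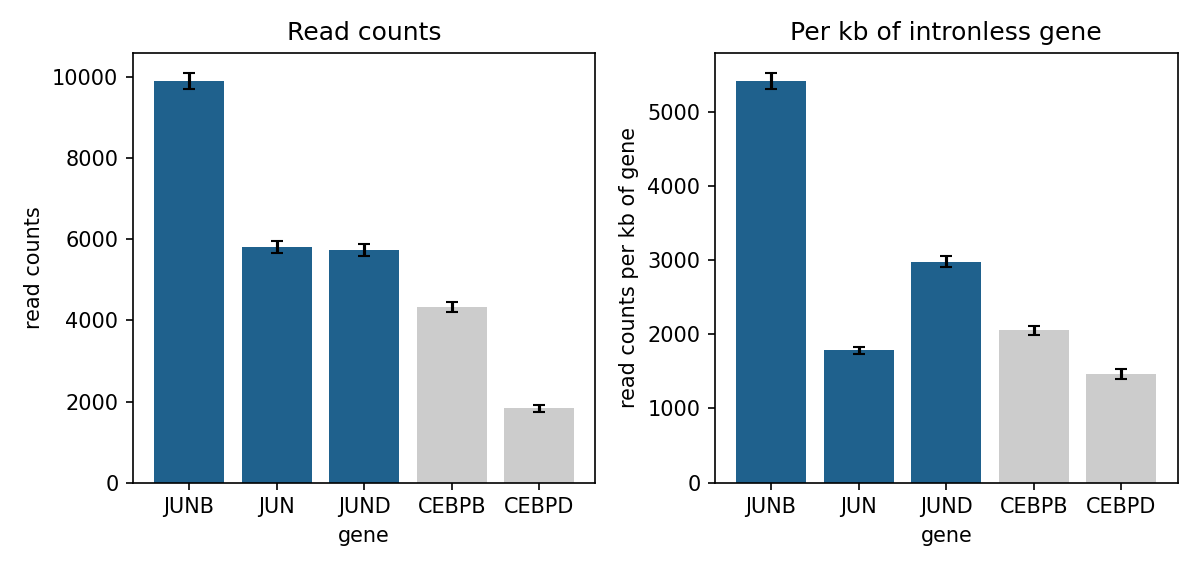
Read counts (left) and read counts per kb of gene (right) of the 3 Jun genes and of CEBPB and CEBPD, intronless bZIP genes shown for scale; bars are 95% Poisson intervals. JUN and JUND are level at 5801 and 5743 counts, but stand at 1781 and 2977 counts per kb.

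JUNB overlaps HOOK2 on the opposite strand by 865 bases in RefSeq. HOOK2 had 3601 counts, and the sources used here do not say whether the counting used strand. Reads of the overlap can therefore not be assigned to JUNB with certainty, and the intervals of JUNB counts and ratios do not cover this. JUN has a divergent long non-coding gene, LINC01135, which had 1 count.

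Among the Fos members the Fra genes held nearly all reads. FOSL2 had 7323 counts (ENSG00000075426.11_3), or 293 CPM (286 to 300), more than 96.3% of detected protein-coding genes. FOSL1 had 3148 counts (ENSG00000175592.8_3), or 126 CPM (121 to 130), more than 88.1% of them. FOS had 425 counts (ENSG00000170345.9_3), or 17.0 CPM (15.4 to 18.7), more than 39.3% of them, and FOSB had 15 counts, or 0.60 CPM (0.336 to 0.989), more than 2.43%. FOSL1 and FOSL2 together held 96.0% (95.6 to 96.3) of the 10911 Fos counts, FOS held 3.90% (3.54 to 4.28) and FOSB 0.137% (0.077 to 0.227). FOSL2 had 17.2 times (15.6 to 19.0) and FOSL1 7.41 times (6.69 to 8.22) the reads of FOS. FOSL2 had 2.33 times (2.23 to 2.43) the reads of FOSL1. These are ratios of read numbers; the Fos genes have introns and no transcript lengths were used here, so the levels of their transcripts could not be ordered.

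The antisense gene FOSL2-AS1, which overlaps FOSL2 by 1815 bases in RefSeq, had 29 counts, so that FOSL2 had 253 times (176 to 377) its counts. As with JUNB and HOOK2, the use of strand in counting is not stated. Reads of the overlap can therefore not be assigned to FOSL2 or FOSL2-AS1 with certainty, and the interval does not cover this. The pseudogene FOSL1P1 had 2 counts. The Jun genes together had 1.97 times (1.92 to 2.01) the reads of the Fos genes, which held 33.4% (32.9 to 33.9) of subunit counts. Without JUNB and FOSL2, the member of each family with the most reads, this ratio was 3.22 (3.1 to 3.34).

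ATF3, BATF and BATF3 together held 1.03% (0.927 to 1.15) of subunit counts. ATF3 had 273 counts (ENSG00000162772.16_5), or 10.9 CPM (9.66 to 12.3), more than 30.0% of detected protein-coding genes. BATF3 had 33 counts, or 1.32 CPM (0.908 to 1.85), and BATF had 32 counts, or 1.28 CPM (0.875 to 1.81), and their ratio of 1.03 (0.615 to 1.73) did not exclude equal read numbers. BATF2, the third BATF gene, which is not among the 10 subunits, had 160 counts. Both BATF genes are best known from leukocytes. PTPRC, the pan-leukocyte marker, had 2 counts, LYZ, CD3E and TYROBP had 1 each, and CD3D was at 0. The order of the 10 genes by reads was JUNB, FOSL2, JUN, JUND, FOSL1, FOS, ATF3, BATF3, BATF and FOSB. Of the 9 neighbouring pairs in it, 7 differed beyond counting error, and the exceptions were JUN with JUND and BATF3 with BATF.

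The subunits were then set among other bZIP genes, of which 43 were listed. The 10 subunits held 36.6% (36.3 to 37.0) of the 89220 counts of all 53. Of the 6 bZIP genes with the highest counts 4 were subunits (JUNB, FOSL2, JUN and JUND), and FOSL1 stood in place 9. FOS stood in place 35, ATF3 in 39, BATF3 in 44, BATF in 45 and FOSB in 49. The other genes above the lowest Jun member were ATF4, the effector of the integrated stress response, with 9476 counts, and NFE2L1, a regulator of proteasome genes, with 5956. JUNB had 1.04 times (1.02 to 1.07) the reads of ATF4, an interval that does not cover the overlap of JUNB with HOOK2.

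**Figure D4:**
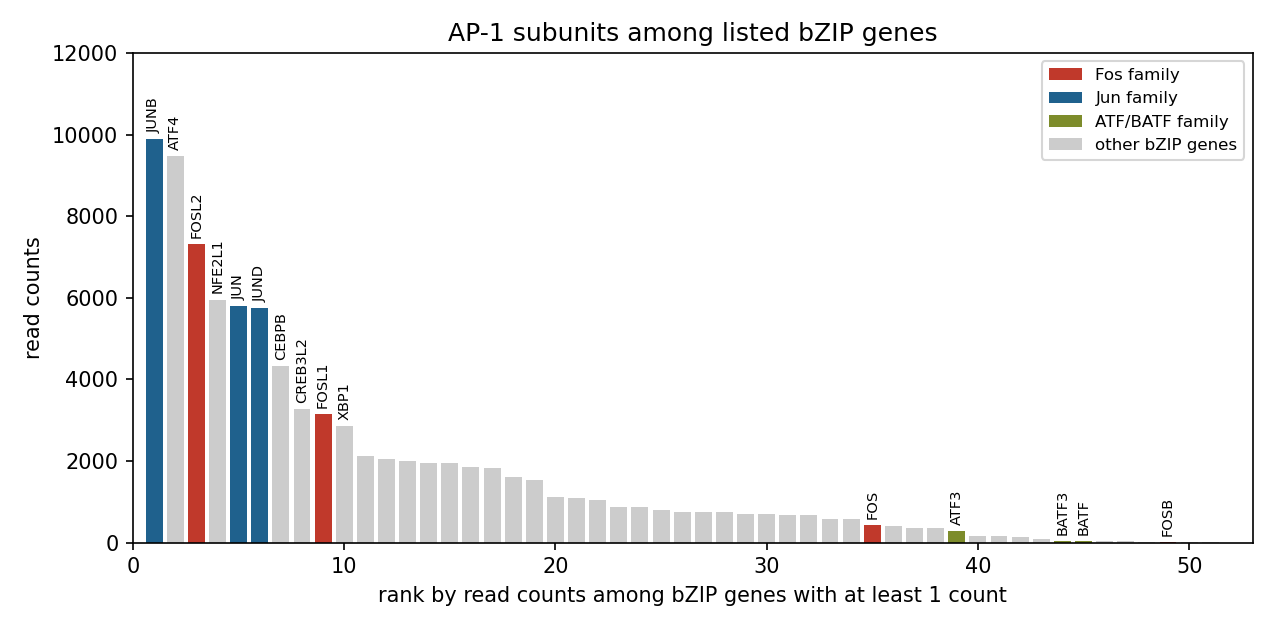
Read counts (y axis) of the listed bZIP genes with at least 1 count, in rank order; coloured bars are AP-1 subunits by family and grey bars other bZIP genes. JUNB, FOSL2, JUN, JUND and FOSL1 are among the 10 highest, and FOS, ATF3, BATF3, BATF and FOSB fall in place 35 or lower.

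For each list below, the values to compare are 69.6% of protein-coding genes detected and a median of 654.5 counts over those. Of 18 listed bZIP partners of Jun, Fos or their relatives, 17 were detected, with a median of 712 counts over those detected. ATF4 and NFE2L1 led, followed by NFE2L2, the antioxidant regulator NRF2, with 2110 counts and the small Maf protein MAFG with 1962. JDP2, a repressor that pairs with Jun, had 1127 counts, ATF2 had 1093 and ATF7 had 862, all more than ATF3. In the list of CREB, C/EBP and other factors 25 of 26 were detected, with a median of 795 counts. CEBPB led it with 4328 counts, ahead of CREB3L2 with 3280, XBP1 with 2855 and CREB3L1 with 2047, and CEBPE had 1 count. CEBPZ of this list carries the family name without a bZIP domain and was left out of the 53.

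Of 25 listed kinases that act on AP-1, 24 were detected, with a median of 1174 counts. MAP2K2, an activator of ERK, led with 9837 counts. The ribosomal S6 kinases RPS6KA3 and RPS6KA4 had 4052 and 2955 counts. Of the JNK genes, MAPK9 had 1061 counts, MAPK8 had 563 and MAPK10, known mainly from neural tissue, had 13. MAP2K7 and MAP2K4, which activate JNK, had 1927 and 848 counts. MAP2K6, an activator of p38, was at 0, whereas MAP2K3, another such activator, had 1576 counts. The p38 genes MAPK13, MAPK12, MAPK14 and MAPK11 had 2800, 2195, 1713 and 314 counts.

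The serum response factor SRF, which drives FOS through the CArG box, had 2289 counts. Its partners MRTFA, MRTFB and ELK3 had 1971, 1670 and 1651 counts, and 6 of 7 genes of this list were detected, with MYOCD at 0. FOS itself had 0.186 times (0.167 to 0.206) the reads of SRF.

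All 20 other immediate early genes were detected, with a median of 784 counts. IER2 had 9781 counts, MCL1 had 7883, KLF6 had 3597 and IER5 had 3375. JUNB had 1.01 times (0.984 to 1.04) the reads of IER2, which did not differ beyond counting error. EGR1, a zinc finger factor induced through SRF alongside FOS, had 3217 counts, and FOS had 0.132 times (0.119 to 0.146) its reads. Reads of FOS were 0.461 times (0.41 to 0.518) those of DUSP1 and did not differ beyond counting error from those of NR4A1, with 473 counts and a ratio of 0.899 (0.786 to 1.03). ARC, NR4A3 and EGR3 had the lowest counts, with 20, 28 and 36, each above the 15 of FOSB.

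**Figure D5:**
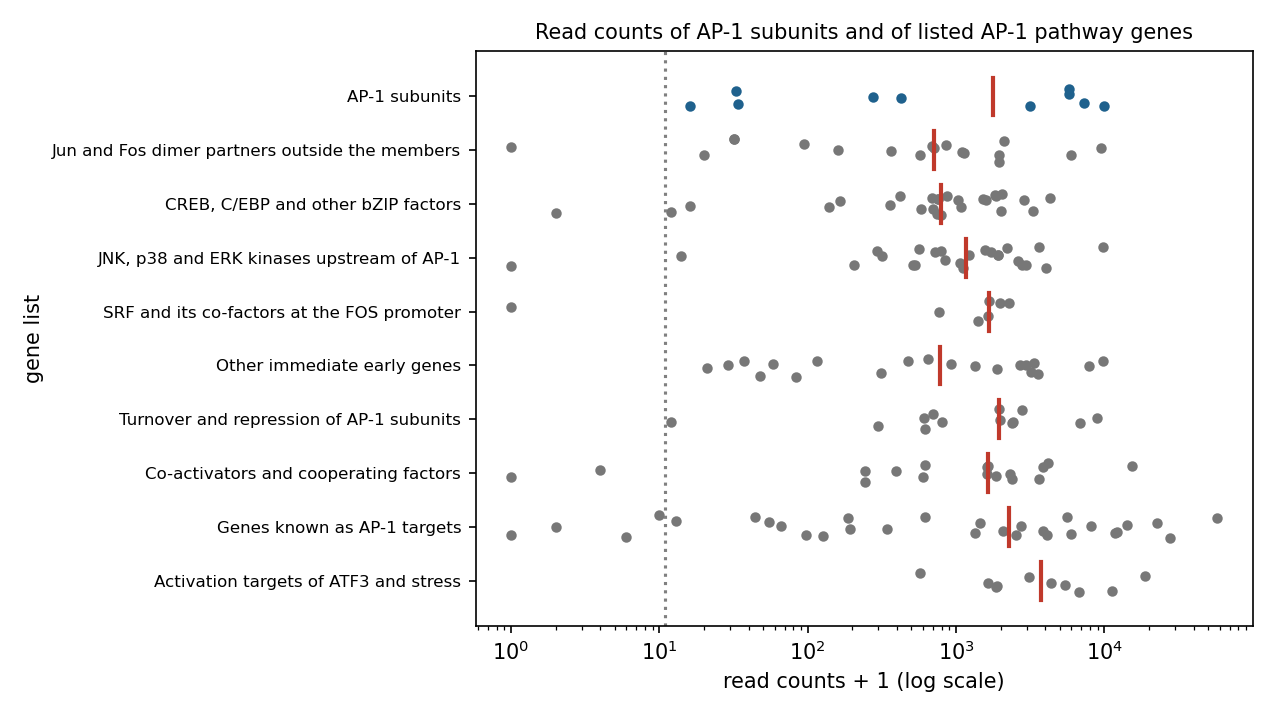
Read counts plus 1 (x axis, log scale) of the 10 AP-1 subunits (blue) and of the genes of 9 pathway lists (grey), 1 point a gene; red bars are medians of detected genes and the dotted line is the minimum of 10 counts. The subunits split into 5 genes from 3148 to 9897 counts and 5 from 15 to 425, around a median of 1786.5.

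Of 13 genes that act on the turnover or repression of AP-1 subunits all were detected, with a median of 1946 counts. The mRNA decay factor ZFP36L1 had 6888 counts and the ubiquitin ligase ITCH had 2405. FBXW7 and COP1, ligase components that target JUN, had 296 and 697 counts, and DET1, which acts with COP1, had 11. Of 17 co-activators and cooperating factors 15 were detected, led by SMARCA4 with 15443 counts, EP300 with 4198, CREBBP with 3874 and ARID1A with 3628. IRF4 and IRF8, the partners of BATF proteins in leukocytes, had 0 and 3 counts.

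Of 30 genes known as AP-1 targets in various cell types, 26 were detected, with a median of 2292 counts over those detected and 1389.5 over all 30. Vimentin (VIM) had 57711 counts, GSTP1, a glutathione transferase, had 27536, the urokinase gene PLAU had 22814 and the metallothionein MT2A, whose close paralogs may share reads, had 14281. Cyclin D1 (CCND1) had 5615 counts and the receptor kinase AXL had 1442. The collagenase MMP13 had 193 counts and MMP1 had 54, while MMP10, MMP3 and KRT6A had 1, 5 and 0 counts. The cytokine genes IL6 and CXCL8 had 65 and 43 counts.

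All 10 genes of the stress response in which ATF3 takes part were detected, with a median of 3744 counts. HSPA5, an endoplasmic reticulum chaperone, had 18947 counts, TRIB3 had 11277, DDIT4 had 6758 and GDF15 had 5420. ATF3 had 0.0288 times (0.0254 to 0.0325) the reads of ATF4 and 0.148 times (0.13 to 0.168) those of DDIT3, the CHOP gene, which had 1848 counts.

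The labelled epithelial line was checked against markers. All 6 epithelial markers were detected, from 4961 counts for EPCAM to 132533 for KRT7. Of 4 lung lineage markers 3 were detected, with 2926 counts for NKX2-1 and 1 for SFTPC. Of 6 leukocyte markers 1 was detected, and those named above were under 10 counts. All 4 fibroblast markers were under 10 counts, and of 4 endothelial markers 2 were detected, since CDH5 had 340 counts and VWF 10, with CLDN5 and TIE1 at 0. A count of 0 was given a one-sided limit of 3 counts, or 0.12 CPM. Their part in the reads of the AP-1 genes was not tested.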

How the data were processed

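RNA-seq read counts per gene of 1 library, wild-type NCI-H1975 replicate 2, were used. The deposited file holds raw whole-number counts made by the authors, with Ensembl identifiers. The submitters' processing notes list the build hg19 and, without roles, featureCounts, STAR, deepTools (3.3.0), MACS2 (2.1.1.20160309) and Bowtie2 (2.3.3.1). For the annotation release and for reads shared by genes, the rule was not given in the sources used here. Per the labels' protocols the library was directional and made from Trizol-extracted total RNA.

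Identifiers without version were matched to symbols for 56373 of 60880 rows, which held 99.8% of counts. Protein-coding type and gene length came from RefSeq (GRCh38.p14), matched by symbol. Counts were divided by the library total to CPM. Intervals are exact Poisson (Garwood), binomial (Clopper-Pearson) or conditional 95% intervals. The limit set for a count of 0 is one-sided, at 3 counts, and replaces the Garwood bound there. Since reads carried no stated molecular identifiers and PCR copies count again, intervals and limits hold for counting error only. With 1 library no p-value was computed. Interval coverage was tested on counts simulated from the same Poisson and binomial models. That checks the computation and not whether these models hold for the reads used here.

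The members and the 14 lists (190 entries, all with a row) were chosen with earlier results of these data known. Named were all members, in each pathway list the 4 highest genes and up to 3 under 10 counts, bZIP genes above the lowest Jun member, and overlapping or antisense genes. Other list genes in the text, the motifs and CEBPB and CEBPD per kb were chosen after values or sequences were seen. LOC124904694, which overlaps BATF3 in RefSeq, was not matched. A few genes that the rule names are not reported here. Scripts ran in Python 3.11.15 with SciPy 1.17.1, NumPy 2.4.6, pandas 2.3.3 and Matplotlib 3.10.9. Alternatives are given in the closing section.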

Additional observations from a re-analysis of the deposited data

How the results depend on the processing

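With 1 library the limits are those of counting, gene length and the unstated counting of strand. All 10 subunits had at least 1 count, 9 remained at 1 CPM or after thinning of counts to 50%, and 7 at a minimum of 50 counts. Of 56 list counts under 4 such alternatives, 50 stayed within 1.5 times. The exceptions were leukocyte markers (5 at 1 count, 0 at 50 counts), fibroblast markers (1 at 1 count) and endothelial markers (1 at 50 counts, 1 at 1 CPM and 1 after thinning). Without JUNB the shares of subunit counts became 47.9% for Fos, 50.6% for Jun and 1.48% for ATF and BATF genes. Without JUNB and FOSL2 the ratio of Jun to Fos reads became 3.22. Without division by length the ratio of JUND to JUN became 0.99 (0.954 to 1.03), an interval that includes equal read numbers, and those of JUNB to JUN and to JUND became 1.71 and 1.72. The share of subunits in bZIP counts became 41.0% without ATF4. Thinning keeps ratios of counts on average, so for ratios it shows the effect of fewer reads alone. Ratios of FOSL1 to FOS, FOSL2 to FOSL1 and FOS to EGR1 stayed inside their intervals after thinning. The alternatives on length, on ATF4 and on the last 2 of these ratios were chosen after seeing the data. Totals without mitochondrial genes, without the 10 highest genes or of protein-coding genes alone multiplied every CPM by 1.06, 1.08 or 1.09. Family shares, the Jun to Fos ratio and the FOSL1 to FOS ratio per kb were not run, because transcript lengths of genes with introns were not used here. No paired analysis was possible because no second RNA-seq library was used here.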

Other observations

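CEBPB and CEBPD, bZIP genes without introns, were set beside the Jun genes per length, a comparison chosen after their counts were seen. CEBPB had 2053 counts per kb (1992 to 2115) and CEBPD had 1463 (1397 to 1532). The level of CEBPB per kb was 1.15 times (1.11 to 1.2) that of JUN, although by reads it had 0.746 times (0.717 to 0.776) those of JUN. Against JUNB its level per kb was 0.38 times (0.366 to 0.393).

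Of the 20 other immediate early genes listed, 13 had a RefSeq promoter window. Among these 13, EGR1 and EGR2 held a CArG box, and they had 3217 and 57 counts. Over all 35116 windows the share with a CArG box was 1.29%, counted by window and not by gene.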
